A study of Mus musculus with 16 samples.

Results

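The circadian clock and clock output genes described here were Arntl, Npas2, Nfil3, Dbp, Tef, Ciart, Per2, Per3, Nr1d1 and Bhlhe40. All 10 had at least 1 probe set annotated to them alone, 22 probe sets in all, of 45037 probe sets tested and of 18193 genes with a probe set of their own on an Affymetrix whole-genome mouse array. Liver RNA of 16 male mice aged 12 to 20 weeks was measured, with 1 array per mouse and 4 mice per group. The groups were PPARα-null (knockout, substrain 129S4/SvJae) on food with 0.1% Wy14643 (w/w) for 5 days, wild type (129S1/SvImJ) on the same food, knockout on control food and wild type on control food. PPARα is the nuclear receptor that fibrate drugs activate in liver, and Wy14643 is a synthetic agonist of it. The knockout is a null allele carried in all tissues and not a deletion in hepatocytes alone. Knockout and wild type differ in substrain as well as in Ppara, and these cannot be told apart.

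The clock of liver cells is a feedback loop of transcription factors. Arntl (also known as Bmal1) pairs with Clock or its relative Npas2 and binds E-box sequences. The pair switches on the Per and Cry genes, Nr1d1, Dbp, Ciart and Bhlhe40. The products of the Per and Cry genes, Ciart and Bhlhe40 then hold the pair back. The product of Nr1d1 represses Arntl, Npas2 and Nfil3 through ROR elements. Dbp and Tef activate D-box sequences, which Nfil3 represses, so that in mouse liver Arntl, Npas2 and Nfil3 are high at the time of day when Dbp, Tef, Per3 and Nr1d1 are low. The sources used here give no time of killing for these mice, and each mouse was measured once. Any difference in time of day between the food groups cannot be told apart from the food. The same holds for time of day and genotype. A phase was therefore not measured, and the levels of the Arntl-like genes (Arntl, Npas2, Nfil3) are set against those of the Dbp-like genes (the other 7) in each liver.

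Promoter sequence was available for 8 of the 10 members in RefSeq windows of build GRCm38.p6, each of 300 bases around a start site. The 5 stretches printed here hold the letters of a clock element, in capitals, and are shown for that reason. The Ciart window (chr3:95882229-95882478, minus strand, the 250 bases before the start) holds the E-box CACGTG 3 times, beginning 116, 58 and 44 bases before the start. The Tef window (chr15:81802423-81802672, plus strand) holds it at 127 bases before the start. The Per3 window (chr4:151044666-151044915, minus strand) holds the D-box TTATGTAA at 205 and 158 bases before the start. The Nfil3 window (chr13:52981040-52981289, minus strand) holds TGACCTA, the reverse complement of the ROR element core TAGGTCA, 12 bases before the start, and the Arntl stretch of 30 bases (chr7:113207529-113207558, plus strand) holds TAGGTCA 31 bases after it.

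Ciart: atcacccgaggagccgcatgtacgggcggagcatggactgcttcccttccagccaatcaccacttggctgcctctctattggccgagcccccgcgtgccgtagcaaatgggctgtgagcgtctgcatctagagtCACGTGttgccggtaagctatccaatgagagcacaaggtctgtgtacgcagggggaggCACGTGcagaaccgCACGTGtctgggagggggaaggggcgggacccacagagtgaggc
Tef: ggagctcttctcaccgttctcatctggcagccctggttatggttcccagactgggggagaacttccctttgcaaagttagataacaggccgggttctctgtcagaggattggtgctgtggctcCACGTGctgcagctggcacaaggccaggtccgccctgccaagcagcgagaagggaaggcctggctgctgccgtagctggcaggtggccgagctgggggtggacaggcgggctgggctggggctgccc
Per3: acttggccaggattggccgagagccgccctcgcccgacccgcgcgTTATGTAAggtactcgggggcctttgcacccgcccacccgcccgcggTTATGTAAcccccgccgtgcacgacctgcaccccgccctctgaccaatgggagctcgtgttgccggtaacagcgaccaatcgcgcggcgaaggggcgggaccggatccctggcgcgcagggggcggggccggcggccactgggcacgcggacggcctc
Nfil3: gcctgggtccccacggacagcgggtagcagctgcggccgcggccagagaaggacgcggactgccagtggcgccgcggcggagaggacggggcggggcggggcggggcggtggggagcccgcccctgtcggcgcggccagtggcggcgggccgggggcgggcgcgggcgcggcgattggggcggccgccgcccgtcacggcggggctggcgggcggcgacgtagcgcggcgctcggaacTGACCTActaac
Arntl: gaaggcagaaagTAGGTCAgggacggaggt

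All 5 motifs searched were read on both strands: CACGTG, its variant CACGTT, TTATGTAA, TTACGTAA and TAGGTCA. Among all 32851 windows of this length, 7.15% held CACGTG at least once and 0.0883% at least 3 times as Ciart did. TTATGTAA was in 0.938% of windows, and 0.0213% held it at least 2 times as Per3 did. TAGGTCA was in 2.61% of windows. A second Tef window held CACGTG 138 bases before its start, and the Nr1d1 window held CACGTT, found in 4.68% of all windows, 28 bases before its start. The Dbp and Npas2 windows and the other Arntl window held none of the 5 motifs. These matches describe letters and are not evidence of a bound site.

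Values are log2 of the deposited GCRMA intensity, and each gene is given by its brightest probe set. Array medians lay at 2.15 to 2.24, and a level at or below 2.24 is treated as background, so that a fold against it is a bound, taken with each such level raised to 2.24. The targeted gene Ppara kept signal in the knockout, with a mean log2 level of 9.63 in knockout and 10.78 in wild type on Wy14643, and 9.29 in knockout and 9.92 in wild type on control food (brightest probe set, n = 4 each). Its dimmest probe set averaged 6.36 in knockout and 8.56 in wild type on Wy14643, and 6.17 in knockout and 7.76 in wild type on control food. The place of its probes relative to the disrupted part is not known, so it is a weak check of the labels. Hepatocyte markers were bright in every array (summed intensity of 6 genes 53700 to 55600 in wild type on Wy14643 and 65900 to 71900 in the other 3 groups). Of these 6, 2 were called lower in the wild-type response. Summed Kupffer cell markers were 524 to 644 in wild type on Wy14643 and 970 to 1400 in the other 3 groups, and 7 of the 8 were called lower in the wild-type response. Stellate cell markers summed to 1260 to 1450 in wild type on Wy14643 and 1940 to 2670 in the other 3 groups (4 of 8 called lower in the wild-type response), and erythroid markers to 91.5 to 126 and 495 to 767 (1 of 3 called lower). Over all probe sets 4.82% were called lower in the wild-type response. In the knockout response limma called 0 of 43 markers of hepatocytes and 6 other liver or blood cell types (3 at an unadjusted p under 0.05). Over all probe sets 0.0133% were called higher there and 0% lower, so a count of 0 does not show an unchanged cell makeup. The lymphocyte markers Cd3d, Cd79a and Nkg7 stayed at or below the array median throughout. In whole liver, fewer cells of a type and less RNA per cell cannot be told apart, and the part of cell makeup in the clock results below was not tested.

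In knockout liver, which has no PPARα, 9 of the 10 members separated Wy14643 from control food without overlap of the arrays, against 5.38% of all probe sets. For Per3 and Bhlhe40 the nearest arrays of the foods almost met, with levels given below. With every level at or below 2.24 set to 2.24, a setting chosen after seeing the data, 8 members separated the foods, Npas2 dropping out, against 3.75% of all probe sets. Ciart passed the limma test (adjusted p under 0.01 and a fold over 1.5), as did 0.0133% of all probe sets in the higher direction and 0% in the lower. At an unadjusted p under 0.05 stood 8 of the 10 members and 4154 of the 45037 probe sets. In wild-type liver 4 members did not overlap (22.6% of all probe sets), or 3 with background levels set to 2.24, Arntl dropping out (19.3%). The test was passed by Ciart, which rose, and by Arntl, Nfil3 and Bhlhe40, which fell. There the shares of all probe sets that passed were 5.84% higher and 4.82% lower. The median difference of the 3 Arntl-like members was -1.37 in knockout and -2.08 in wild type. That of the 7 Dbp-like members was 1.41 in knockout and 0.31 in wild type. Over all 10, which pools genes that run opposite, it was 0.77 in knockout and -0.41 in wild type, and no direction is read from it. All probe sets had 0.0069 in knockout and -0.030 in wild type.

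**Figure D1:**
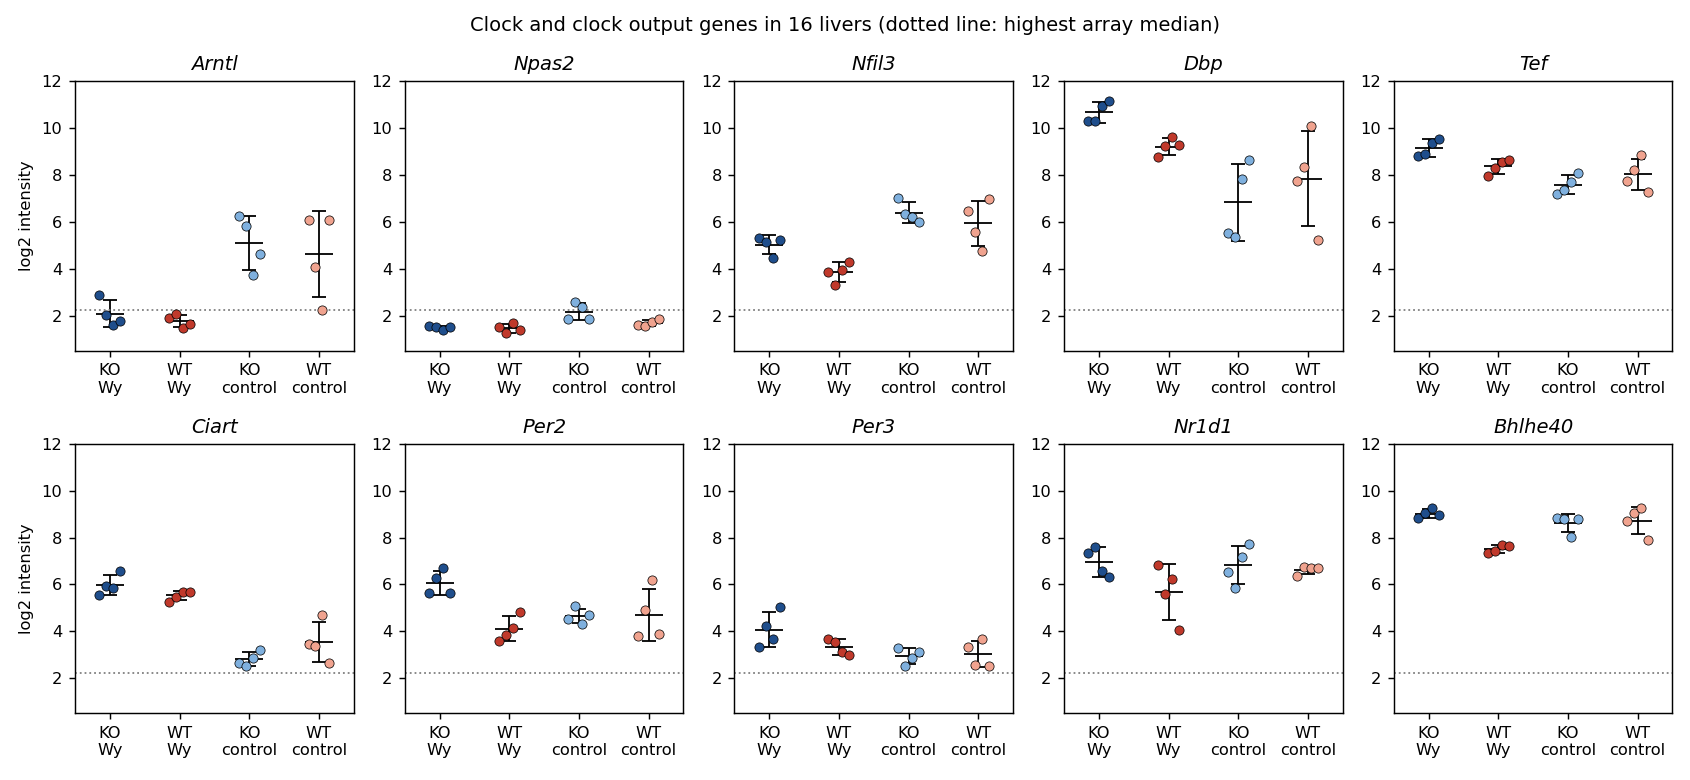
Log2 intensity (vertical, same scale in each panel) of the 10 members in knockout (KO) and wild-type (WT) liver on Wy14643 or control food. Points are single mice, bars are the mean ± SD of 4, and the dotted line is the highest array median (2.24). Arntl lies near that line in both Wy14643 groups and spreads from 2.23 to 6.23 on control food, and Ciart lies higher in both Wy14643 groups than in any control-food liver.

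Arntl, the DNA-binding core of the loop, was close to background in all 8 livers on Wy14643. In knockout liver its log2 levels were 2.88, 2.04, 1.61 and 1.75 on Wy14643, against 6.23, 5.82, 3.73 and 4.63 on control food. In wild-type liver they were 1.90, 2.05, 1.46 and 1.65 on Wy14643, against 6.07, 4.09, 2.23 and 6.08 on control food. The food groups did not overlap in either genotype, but replicate 3 of wild type on control food, at 2.23, was itself at background, so its order against the Wy14643 livers is not read. In wild type Arntl fell at least 5.20-fold (fitted log2 difference -2.85 ± 0.68 SE, limma adjusted p = 0.00516). This call was lost in 6 of 8 refits without 1 array: those without any 1 of the 4 wild-type livers on Wy14643 (differences of -2.94 to -2.75, adjusted p = 0.0108 to 0.0158) and those without replicate 1 or replicate 4 of wild type on control food (-2.36 in each, adjusted p = 0.0227 and 0.0225). In knockout Arntl was at least 6.51-fold lower on Wy14643 (fitted -3.03 ± 0.68, adjusted p = 0.111, not called). The other Arntl probe set averaged 0.98 to 1.26 in every group and carries no level.

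Npas2, the alternative partner of Arntl, was at background in most livers. Its levels lay between 1.40 and 1.55 in the 4 knockout livers on Wy14643, against 1.85, 2.56, 2.37 and 1.86 in knockout on control food (adjusted p = 0.1). In wild type they were 1.52, 1.26, 1.68 and 1.37 on Wy14643, against 1.59, 1.55, 1.71 and 1.85 on control food (adjusted p = 0.357). The 2 arrays above the highest array median were both of knockout on control food. The second Npas2 probe set gave the opposite sign in each of the 4 comparisons between groups, so no direction is read for this gene.

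Nfil3, the repressor at D-boxes, was lower on Wy14643 than on control food in both genotypes without overlap. In knockout it measured 5.29, 5.15, 4.44 and 5.22 on Wy14643, against 7.01, 6.35, 6.20 and 5.995 on control food (-1.37 ± 0.37, adjusted p = 0.214). In wild type it measured 3.87, 3.28, 3.94 and 4.30 on Wy14643, against 6.44, 5.57, 4.75 and 6.96 on control food. It fell 4.23-fold in wild type (-2.08 ± 0.37, adjusted p = 0.000415). Every knockout liver on Wy14643 lay above every wild-type liver on Wy14643 (1.17 ± 0.37, adjusted p = 0.0306, not called).

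Dbp, a D-box activator whose level swings widely over the day in mouse liver, had the largest fitted difference of all members in knockout. The Arntl fold there is only a bound. In knockout its levels were 10.31, 10.28, 10.94 and 11.14 on Wy14643, against 5.53, 5.34, 7.83 and 8.61 on control food. The gap between these groups was 14.3-fold (3.84 ± 0.80), the arrays did not overlap, and the wide spread on control food left adjusted p = 0.0922. In wild type the levels were 8.75, 9.21, 9.62 and 9.25 on Wy14643, against 7.75, 8.32, 10.08 and 5.22 on control food, where replicate 3 exceeded all 4 livers on Wy14643 (1.37 ± 0.80, adjusted p = 0.283). Without that replicate the wild-type difference was 2.11, and without replicate 4 of the same group it was 0.49. A second Dbp probe set gave 3.85 in knockout and 1.61 in wild type.

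Tef, the relative of Dbp, differed in the same direction by less. Its levels were 8.79, 8.87, 9.37 and 9.54 in knockout on Wy14643, against 7.20, 7.36, 7.70 and 8.08 in knockout on control food, without overlap (1.56 ± 0.28, adjusted p = 0.0496, not called). In wild type they were 7.96, 8.29, 8.53 and 8.65 on Wy14643, against 7.74, 8.21, 8.83 and 7.28 on control food, and the groups overlapped (0.34 ± 0.28, adjusted p = 0.473). The second Tef probe set gave 1.80 in knockout and 1.04 in wild type (adjusted p = 0.0802 and 0.0488).

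Ciart (also known as Chrono), a repressor of the Arntl and Clock pair, whose window with 3 E-boxes is printed above, was called in both genotypes. In knockout its levels were 5.56, 5.92, 5.85 and 6.56 on Wy14643, against 2.66, 2.53, 2.88 and 3.20 on control food. In wild type they were 5.27, 5.48, 5.69 and 5.69 on Wy14643, against 3.47, 3.39, 4.69 and 2.65 on control food. Ciart rose 8.92-fold in knockout (3.16 ± 0.31, adjusted p = 0.000295) and 3.94-fold in wild type (1.98 ± 0.31, adjusted p = 0.000116), with no overlap in either. With an offset of 16 added to the intensities, which shrinks dim values, the differences were 1.78 in knockout and 1.12 in wild type, both still called (adjusted p = 0.00158 and 0.000377). Only 5 genes passed the test in the knockout response. The other 4 were the fatty acid and fatty aldehyde oxidation genes Aldh3a2 (1.16), Acaa1b (1.14), Ech1 (0.78) and Acadl (0.66), all with smaller differences than Ciart. The responses of Ciart differed by 1.18 ± 0.44 between genotypes (adjusted p = 0.0983).

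The Per genes encode the repressors that close the loop with the Cry proteins. Per2 measured 5.62, 6.29, 6.70 and 5.65 in knockout on Wy14643, against 4.52, 5.06, 4.32 and 4.71 in knockout on control food, with no overlap (1.41 ± 0.42, adjusted p = 0.26). In wild type it measured 3.59, 3.85, 4.13 and 4.83 on Wy14643, against 3.82, 4.89, 6.21 and 3.90 on control food, with overlap (-0.61 ± 0.42, adjusted p = 0.379). On Wy14643 all 4 knockout livers thus exceeded the 4 wild-type livers, a difference of 3.91-fold (1.97 ± 0.42, adjusted p = 0.00195). Its other 2 probe sets, both dimmer, gave a difference of 1.17 (adjusted p = 0.0148) and of at least 1.09 (adjusted p = 0.0114) for the same comparison, not called.

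Per3, dim throughout, measured 3.33, 4.22, 3.67 and 5.04 in knockout on Wy14643, against 3.30, 2.50, 2.85 and 3.10 in knockout on control food (1.12 ± 0.32, adjusted p = 0.24). The knockout groups did not overlap, although their nearest arrays lay at 3.33 and 3.30. In wild type it measured 3.68, 3.53, 3.12 and 3.00 on Wy14643, against 3.31, 2.58, 3.65 and 2.54 on control food, with overlap. Of its 6 probe sets, the second brightest gave 1.46 ± 0.24 in knockout (adjusted p = 0.0303) and 0.82 ± 0.24 in wild type (adjusted p = 0.02), neither of them called.

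Nr1d1 (also known as Rev-erbα), the heme-binding repressor of Arntl, was the member whose knockout food groups overlapped. Its levels were 7.35, 7.61, 6.57 and 6.31 in knockout on Wy14643, against 6.51, 5.86, 7.17 and 7.73 in knockout on control food (0.14 ± 0.48, adjusted p = 0.962). In wild type they were 6.83, 5.60, 6.23 and 4.07 on Wy14643, against 6.37, 6.73, 6.71 and 6.71 on control food (-0.95 ± 0.48, adjusted p = 0.2). Its arrays spread more on Wy14643 than on control food in wild type (SD 1.19 and 0.17), the reverse of Dbp.

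Bhlhe40 (also known as Dec1), which competes for E-boxes, was the member whose response differed between genotypes beyond the threshold. It measured 8.84, 9.04, 9.26 and 8.94 in knockout on Wy14643, against 8.81, 8.81, 8.04 and 8.78 in knockout on control food (0.41 ± 0.23, adjusted p = 0.631). These groups did not overlap, although their nearest arrays lay at 8.84 and 8.81. In wild type it measured 7.34, 7.42, 7.67 and 7.64 on Wy14643, against 8.72, 9.03, 9.25 and 7.91 on control food, without overlap. It fell 2.31-fold in wild type (-1.21 ± 0.23, adjusted p = 0.000807). The knockout response exceeded the wild-type response by 1.62 ± 0.33 (interaction, adjusted p = 0.00239), a test that 2.94% of all probe sets passed in the higher and 4.1% in the lower direction.

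**Figure D2:**
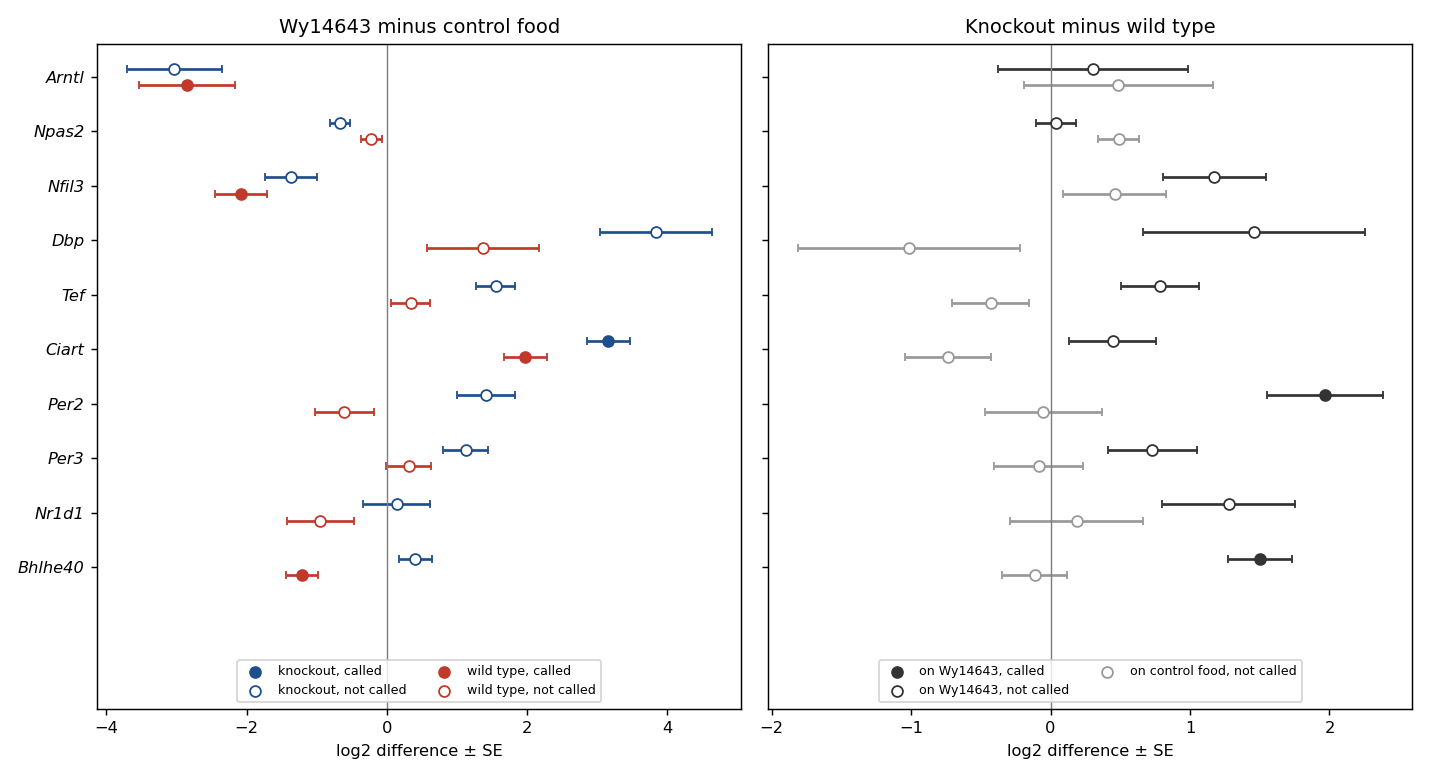
Log2 differences ± SE from the limma fit for each member (vertical): at left Wy14643 minus control food in knockout and in wild type, at right knockout minus wild type on Wy14643 and on control food. Filled points passed the test and open points did not. Arntl on Wy14643 and Npas2 were at background, so their points are fitted values and not measured folds. Ciart is filled in both genotypes at left, and Per2 and Bhlhe40 are filled at right on Wy14643.

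The comparison of genotypes asks which levels differ between knockout and wild type, which differ in substrain as well as in Ppara. A difference in time of killing between the genotypes cannot be told apart from genotype either. On Wy14643, 2 of the 10 members passed, Per2 and Bhlhe40 (2.83-fold higher, 95% interval 1.02 to 1.99 on the log2 scale, adjusted p = 8.75e-05), both higher in knockout, where 4.91% of all probe sets were higher and 6.17% lower. Another 3 members were higher in every knockout liver than in every wild-type liver without being called: Nfil3, Dbp (1.46 ± 0.80, adjusted p = 0.238) and Tef (0.78 ± 0.28, adjusted p = 0.0564). These SEs pool the spread of all 4 groups, and Dbp spread widely on control food. In a limma fit of only the arrays compared, Dbp (adjusted p = 0.00112) and Nfil3 (adjusted p = 0.0051) also passed, so their calls depend on that choice. The 5 members without overlap compare with 21.5% of all probe sets. With background levels set to 2.24 they were also 5 (18.2%). The mean of Arntl was at background in both genotypes on Wy14643, so no difference is given for it, and Ciart differed by 0.44 with a 95% interval of -0.21 to 1.10. On control food limma called 0 members (2 at an unadjusted p under 0.05, Npas2 and Ciart), where 0.091% of all probe sets were higher and 0.262% lower in knockout. There 1 member, Npas2 at background, did not overlap (6.48% of all probe sets), and with background levels set to 2.24 there were 0 (4.65%). The 95% interval of the difference was -0.95 to 1.92 for Arntl and -2.70 to 0.67 for Dbp.

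Dbp spread more between mice on control food than on Wy14643, without a test of the spread. The SD of Dbp on Wy14643 was 0.44 in knockout and 0.35 in wild type, against 1.64 in knockout and 2.01 in wild type on control food. In knockout Per2 (SD 0.52 on Wy14643 and 0.32 on control food), Per3 (0.75 and 0.34) and Ciart (0.42 and 0.29) spread more on Wy14643. Nfil3, Tef, Nr1d1 and Bhlhe40 spread less there, as Dbp did. The SD of Arntl on control food was 1.14 in knockout and 1.84 in wild type, and its SD on Wy14643 is not given because 7 of the 8 values lay at background. Over 12877 probe sets with a mean log2 value above 4, the median SD was 0.19 in knockout and 0.148 in wild type on Wy14643, and 0.13 and 0.147 on control food. Ordered by Dbp, the 8 control-food livers began with replicate 4 of wild type (Dbp 5.22, Arntl 6.08, Nfil3 6.96, Tef 7.28, Ciart 2.65) and ended with replicate 3 of wild type (Dbp 10.08, Arntl 2.23, Nfil3 4.75, Tef 8.83, Ciart 4.69). The knockout livers on control food lay between them, replicates 1 and 2 near the low end of Dbp (5.53 and 5.34) and replicates 3 and 4 at 7.83 and 8.61. In each of these 5 genes replicate 3 of wild type was the control-food liver closest to the Wy14643 livers.

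**Figure D3:**
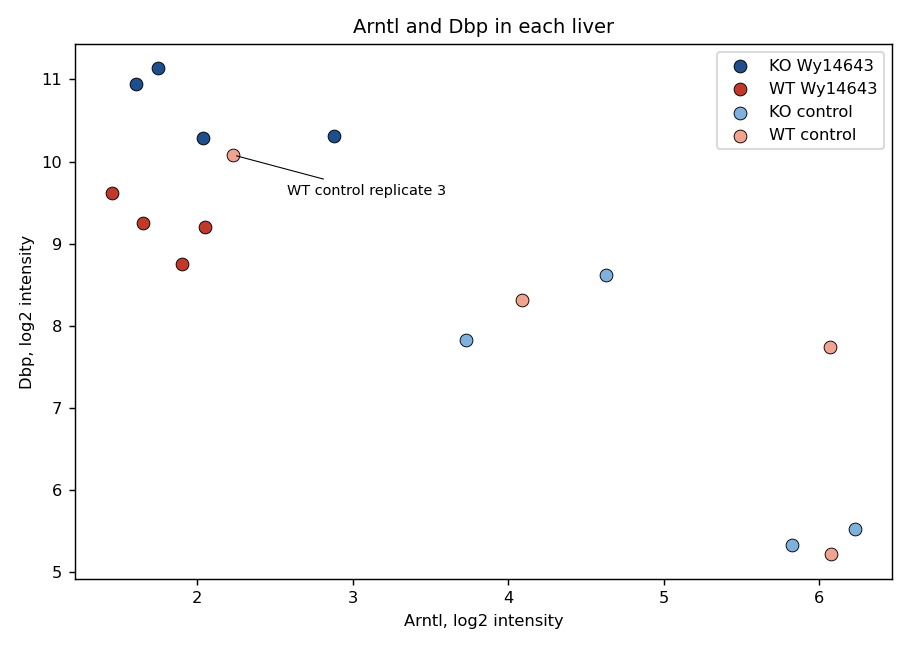
Log2 intensity of Arntl (horizontal) against Dbp (vertical), 1 point per liver, coloured by group. The 8 Wy14643 livers lie at low Arntl and high Dbp, the control-food livers run from there to Arntl near 6 and Dbp near 5, and replicate 3 of wild type on control food lies among the Wy14643 livers.

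Within the control-food groups Arntl and Dbp ran opposite to each other. After subtracting group means, Pearson's r over the 16 livers was -0.837 and Spearman's rho was -0.894, given as a description with no test since this pair was chosen with its pattern known. Without the 2 livers farthest from the median, replicates 3 and 4 of wild type on control food, r was -0.714 and rho -0.842 (n = 14). The r was -0.847 in the 8 control-food livers. In the Wy14643 livers 7 of the 8 Arntl values lay at background and no r is given. The coefficients over 16 and over 14 livers include these values, and rho gives their ranks full weight.

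A clock index, the mean log2 level of Arntl, Npas2 and Nfil3 minus the mean of the other 7 members, puts the balance in 1 number per liver, with no test since the members were chosen. It was -3.87, -4.56, -5.00 and -4.77 in knockout on Wy14643, against -0.47, -0.44, -1.73 and -2.15 in knockout on control food. In wild type it was -3.77, -4.00, -4.07 and -3.72 on Wy14643, against -1.18, -2.43, -4.17 and -0.21 on control food. The knockout groups did not overlap, and in wild type replicate 3 on control food lay below all 4 livers on Wy14643. The mean difference was -3.35 in knockout and -1.89 in wild type. With background levels of Arntl and Npas2 set to 2.24 it was -3.06 in knockout and -1.66 in wild type. In knockout the Arntl-like mean was 2.86 ± 0.31 on Wy14643 and 4.55 ± 0.49 on control food, and the Dbp-like mean 7.41 ± 0.21 and 5.75 ± 0.43 (SD, n = 4). In wild type the Arntl-like mean was 2.36 ± 0.11 on Wy14643 and 4.07 ± 0.95 on control food, whereas the Dbp-like mean was 6.25 ± 0.12 and 6.07 ± 0.78. That mean joins members that differed in both directions in wild type: Ciart rose (1.98) and Bhlhe40 fell (-1.21), and the differences not called were 1.37 for Dbp, -0.95 for Nr1d1 and -0.61 for Per2.

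**Figure D4:**
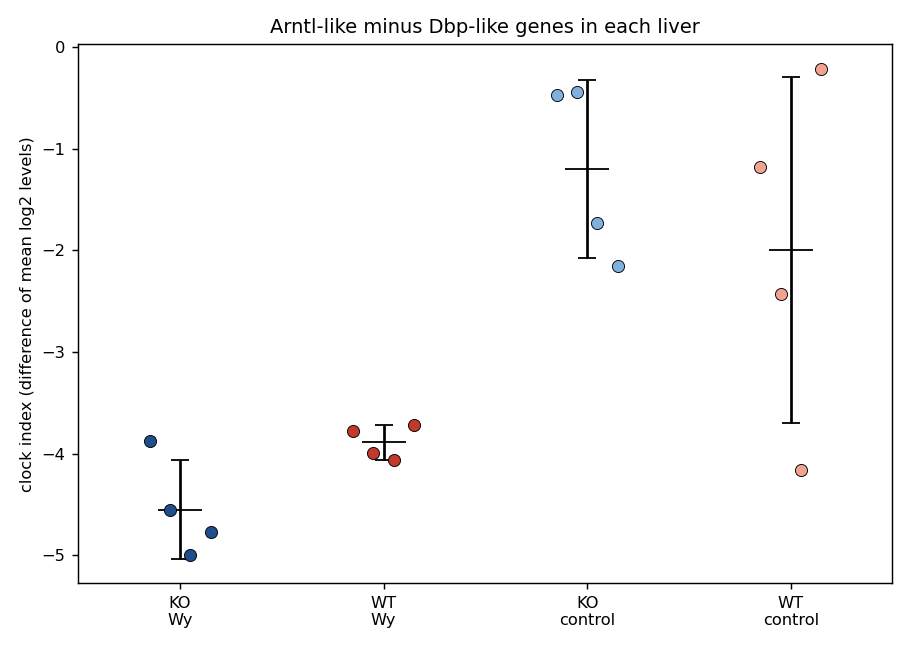
Clock index (vertical, difference of mean log2 levels, Arntl-like minus Dbp-like genes) of each liver by group, with mean ± SD of 4 mice. The 8 Wy14643 livers lie between -5.00 and -3.72, and the control-food livers between -4.17 and -0.21.

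Of 22 other clock genes and modifiers 20 were measured, of which limma called 0 in the knockout response (9 at an unadjusted p under 0.05) and 3 rose in wild type: Hlf, the remaining relative of Dbp and Tef (0.62), Timeless (at least 1.01) and the kinase Gsk3b (0.71), and 0 fell, beside 5.84% of all probe sets higher and 4.82% lower. Those shares are of the wild-type response, and in the knockout response they were 0.0133% higher and 0% lower. The median difference of the list was 0.048 in knockout and -0.081 in wild type. Hlf had nearly the same difference in knockout (0.65 ± 0.13, adjusted p = 0.089). Usp2, a ubiquitin protease that is rhythmic in mouse liver, had the largest differences of this list without passing, 4.45 ± 0.84 in knockout (adjusted p = 0.0606) and 3.03 ± 0.84 in wild type (adjusted p = 0.0152). Its mean level was 8.05 in knockout and 7.39 in wild type on Wy14643, against 3.61 and 4.36 on control food. Clock, the partner of Arntl, measured 5.88 in knockout on Wy14643 and 7.15 in knockout on control food (-1.27 ± 0.30, adjusted p = 0.125). In wild type it measured 6.80 on Wy14643 and 6.63 on control food (0.17 ± 0.30, adjusted p = 0.766). On Wy14643 Cry2, a partner of the Per proteins, was 0.75 higher in knockout than in wild type, and Timeless 0.97 lower (adjusted p = 0.00792 and 0.0014).

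Of 22 rhythmic output genes of liver 17 were measured, and limma called 0 in the knockout response (10 at an unadjusted p under 0.05, list median 0.60). That response had 0.0133% of all probe sets called higher and 0% lower. In wild type the cell cycle kinase Wee1, a known E-box target, rose by 2.87 ± 0.50 (adjusted p = 0.000358), and the vasopressin receptor Avpr1a (-2.50) and the coenzyme A diphosphatase Nudt7 (-0.80) fell, again beside 5.84% higher and 4.82% lower over all probe sets. Wee1 gave 2.35 ± 0.50 in knockout (adjusted p = 0.0969), and the elongase Elovl3 gave -1.64 ± 0.34 in knockout (adjusted p = 0.089) and -0.24 ± 0.34 in wild type. On Wy14643, 4 of these genes were higher in knockout than in wild type, Avpr1a (1.98), Nudt7 (0.95), Tspan4 (0.86) and Pnp (0.79), and 0 were lower, beside 4.91% of all probe sets higher and 6.17% lower.

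Liver rhythms also follow hormones, meals and body temperature, and genes known to answer to these were counted in the same way. Of 18 measured genes of glucocorticoid signalling and meal timing, limma called 0 in knockout (3 at an unadjusted p under 0.05), and in wild type Mt1 (4.76), Mt2 (4.51), Fkbp5 (2.17) and Irs2 (at least 0.35) rose and Tsc22d3 (-1.34) fell, 4 and 1 of 18 beside 5.84% and 4.82% of all probe sets. Fkbp5, a glucocorticoid target, differed by 0.0034 ± 0.27 between the foods in knockout, and the knockout response was 2.17 lower than the wild-type response (adjusted p = 0.00071). Of 9 measured temperature-responsive genes, limma called 0 in knockout (2 at an unadjusted p under 0.05), and in wild type the chaperones Hspb1 (3.92), Hspa1b (2.93), Hspa1a (at least 0.49) and Hsp90aa1 (0.69) rose and Hspa5 (-1.19) fell, 4 and 1 of 9 beside the same shares. For the knockout response the shares of all probe sets called were 0.0133% higher and 0% lower. A count of 0 in these 2 lists therefore does not show that their genes were unchanged in knockout. These values stand beside the clock results, and their part in them was not tested.

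As a description over the 16 livers, the genes with a mean log2 level of at least 6 whose values were most like those of Arntl were Dapk1 (r = 0.943), Ypel2 (0.926), Pnrc1 (0.904), Irf2bp2 (0.894) and Wdr91 (0.87). Those most like Dbp were Tef (0.953), Nr1d2 (0.918), Pex26 (0.874), Coq10b (0.858) and Stbd1 (0.848). Dbp (-0.872) and Coq10b (-0.929) were among the 5 most opposite to Arntl, and Dapk1 (-0.871) and Elovl3 (-0.861) among the 5 most opposite to Dbp. These coefficients follow group means as well as single mice.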

How the data were processed

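The members and the gene lists were chosen with earlier results of these data known. The deposited values are intensities, summarized per probe set by the authors (the submitters' processing notes name GCRMA 2.20). Values were positive with array maxima of 18107 to 22364, which is a linear scale, so log2 was taken with no offset. GCRMA normalizes quantiles between arrays, and dim values depend on its background step. Slide and scan date were not used here. The table held 45101 probe sets, of which 64 controls were left out.

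All 16 arrays entered a linear model with a mean for each of the 4 groups and empirical Bayes moderation (limma 3.58.1, R 4.3.3). P-values were two-sided and adjusted by Benjamini-Hochberg over 45037 probe sets, and called at adjusted p under 0.01 with a fold over 1.5. Differences are the first-named group minus the second. The fit was tested on simulated data. Each gene was represented by its probe set of highest mean (34945 probe sets named 1 gene, 932 several, 9160 none). All members were named, and of each other list up to 5 called genes. Usp2, Clock and Elovl3 were described as well, outside this rule, since none of them was called. Differences of other uncalled genes of these lists are not given, and some of them ran opposite in the genotypes. The replicates are separate mice, and 4 arrays per group limit the precision. The alternatives were filters on low means, an offset of 16, other scaling, moderation, thresholds, arrays, probe sets and replicate number as a block.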

Additional observations from a re-analysis of the deposited data

Results flagged for a closer look

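A single liver stood apart from the other 3 of its group in 3 of 40 checks of a member in a group of 4, by the gap to its nearest neighbour relative to the range of the group (Dixon's 95% limit). Nfil3 was 4.44 in replicate 3 of knockout on Wy14643, below the others at 5.15 to 5.29. Bhlhe40 was 8.04 in replicate 3 of knockout on control food, below the others at 8.78 to 8.81. Nr1d1 was 6.37 in replicate 1 of wild type on control food, where the other 3 lay at 6.71 to 6.73. Chance alone marks about 1 group in 20.

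The responses to Wy14643 of knockout and wild type differed for Bhlhe40, by 1.62 (interaction of the limma fit, adjusted p = 0.00239). The values of all 4 groups are given above.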

How the results depend on the processing

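Of 475 values of single members under alternative settings 461 kept their direction and their side of the threshold. The counts of members called moved by over 1.5 times with a filter on mean log2 above 6 (0 in the knockout response, 1 in the wild-type response, 1 between genotypes on Wy14643), with only the arrays compared (4 between genotypes on Wy14643), with an adjusted p under 0.05 and no fold (2 in the knockout response, 2 in the interaction), and with the second probe set (1 between genotypes on Wy14643). Smaller moves were 3 in the wild-type response with mean log2 above 4, an offset of 16, trend and robust moderation, only the arrays compared or the second probe set, and 3 between genotypes on Wy14643 at an adjusted p under 0.05. A filter on the mean removes dimmer genes before the fit and does not retest them. Among the called members, the filter above 6 left out Arntl, Nfil3, Ciart and Per2, and the filter above 4 left out Arntl. Arntl lost its wild-type call with an offset of 16 (-1.26, adjusted p = 0.051), with trend and robust moderation (0.021) and with only the arrays compared (0.0178). With an offset of 16 the called differences of Nfil3 in wild type (-1.37) and Per2 between genotypes on Wy14643 (1.32) shrank and stayed called, as for Ciart above. The second probe set of Npas2, at background, gave 0.17 in knockout, 0.25 in wild type, -0.0027 between genotypes on control food and -0.087 on Wy14643. The clock index moved with an offset of 16 (-2.11 in knockout) and with Arntl minus Dbp alone (-6.87 in knockout, -4.22 in wild type). With arrays centred on their median or background levels set to 2.24, settings chosen after seeing the data, 0 members had no overlap between genotypes on control food, and without 1 array 1 to 2 did. The causes were not tested beyond the construction of each setting.

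Without 1 array at a time, the wild-type response of Arntl ranged from -3.64 to -2.36, its interaction from -0.67 to 0.61, the knockout response of Nr1d1 from -0.18 to 0.45 and Npas2 between genotypes on Wy14643 from -0.027 to 0.11. Between genotypes on control food, Arntl ranged from -0.31 to 0.97, Per2 from -0.35 to 0.45, Per3 from -0.24 to 0.13, Nr1d1 from -0.12 to 0.51 and Bhlhe40 from -0.39 to 0.076.

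Deviations of same-numbered arrays of different groups correlated over 0.1 in 6 of 24 pairs (median r 0.048). For arrays with different numbers 7 of 72 pairs did so (median r -0.015). Of 16 arrays, 6 correlated best with their own number. Whether the numbers pair the mice was not tested beyond these values. On control food replicate 3 had the lowest Arntl in both genotypes, and in all 4 groups the highest Dbp was in replicate 3 or 4. Other extremes did not match: on control food replicate 4 had the highest Dbp in knockout and the lowest in wild type. The lowest Dbp was in replicate 2 in both knockout groups and in replicate 1 in wild type on Wy14643. These orders come from the data and not from the design, and no pairing is read from them. The order of Arntl on Wy14643, where its low values were at background, is not read. With replicate number as a block, 1 member was called in the knockout response, 4 in the wild-type response, 2 between genotypes on Wy14643 and 0 on control food, and 1 in the interaction, as without it. Dim probe sets and 4 arrays per group limit what can be detected.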
